A study of Canis lupus familiaris with 15 samples.

Results

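Natural luteolysis at the end of canine pregnancy was set against luteolysis induced by an antigestagen in the corpus luteum (CL), gene by gene, to find where both effects were alike and where they differed. The natural effect was luteolysis over luteal regression, the induced effect was antigestagen over mid-gestation, and the quantity of interest was the natural minus the induced effect, on the log2 scale. All 15 dogs entered, and a gene was tested if its count averaged 10 or more in at least 1 group, which held for 14922 of the 23630 genes of the count table. The dogs were cross-breeds of 2 to 8 years, with 1 RNA-Seq library per dog.

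The 3 dogs in luteolysis (Amy, Kimba and Senta) were pregnant and were sampled at the prepartum fall of progesterone (P4), after 3 consecutive measurements below 2 to 3 ng/ml in blood taken every 6 h from day 58 on. The 2 dogs in luteal regression (Lissy and Mara) were non-pregnant and untreated, at day 65. The 5 antigestagen dogs (Citir, Suzan, Birnur, Seran and Zeynep) were pregnant, received aglepristone at 10 mg/kg in 2 applications 24 h apart between days 40 and 45, and were operated 24 h after the last one. The 5 mid-gestation dogs (Nescafe, Turgay, Dardanel, Gold and Kurtulus) were pregnant and untreated, at days 35 to 40. Both effects rest on different dogs. The natural effect also compares pregnant with non-pregnant dogs, and each effect compares different days, so that pregnancy, day and luteolysis cannot be told apart in the natural effect, nor day and treatment in the induced one. The difference of effects can equally be read as luteolysis over antigestagen minus luteal regression over mid-gestation, so a value far from 0 can arise from either pair. A further luteal regression dog of the study was not analysed here.

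The CL is the gland that forms from the ovulated follicle and secretes P4, and in the dog it is the source of P4 throughout pregnancy. In non-pregnant dogs it regresses slowly, whereas in pregnant dogs it is removed abruptly before birth, in a process known to involve prostaglandins and immune cells. Aglepristone occupies the P4 receptor without activating it, and thereby takes away P4 action in the CL as well as in the uterus. In bulk tissue, fewer cells of a type and less RNA per cell cannot be told apart.

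Total counts were between 8558743 and 26284315 reads per dog (median 18313707). The only member of the luteal cell marker list that could be paired with a symbol was PRLR, the prolactin receptor, which was present at 65.8 to 175 CPM in every dog. CPM is the depth-scaled read count, with the library sizes corrected by TMM (trimmed mean of M values). Symbols were given by the study for genes it had called in at least 1 of its contrasts, which covered 2967 of the genes tested; the luteal markers STAR, CYP11A1, HSD3B2 and LHCGR could not be paired with an identifier. Within luteolysis, Amy stood apart on the principal component of largest variance, at −29.0 against 84.4 in Kimba and 67.7 in Senta. Counts of called genes without Amy are therefore given beside those with all dogs. Amy was singled out from these same counts, so a gene that passes only without Amy is not independently supported.

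No gene passed as differentially expressed (DEG, p-value below 0.01 and adjusted p-value below 0.1) for the difference of effects in edgeR's quasi-likelihood test (0%), where the smallest adjusted p-value was 0.163. At an unadjusted p-value below 0.05 there were 1869 genes (12.5%), and below 0.01 there were 568 genes (3.81%), of which 400 had a positive difference (2.68%) and 168 a negative one (1.13%). The Wald test of DESeq2 called 495 genes (3.32%), of which 350 were positive (2.35%), and limma-voom with quality weights 2549. Without Amy, edgeR called 684 DEG (4.56%), 469 positive (3.12%) and 215 negative (1.43%), of which 345 had been below 0.01 with all dogs and 319 were DESeq2 DEG. Without Seran there were 28 DEG, without Mara 2 and without Gold 1. The difference of effects for single genes is therefore given below as values that did not pass the adjusted test with all dogs.

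The natural effect held 735 DEG (4.93%), of which 520 rose (3.48%) and 215 fell (1.44%) in luteolysis, while the induced effect held 0 DEG in edgeR, with 997 genes at an unadjusted p-value below 0.05 (6.68%), 3.67% higher and 3.01% lower after antigestagen, and 249 below 0.01. DESeq2 called 87 genes for the induced effect and limma-voom 18. The natural DEG depended on the luteal regression dogs and on Senta: there were 0 without Lissy and 1 without Mara, where the remaining dog is assumed to vary like the other groups, and 5 without Senta. Without Amy there were 1594, 1045 that rose (6.96%) and 549 that fell (3.66%). With upper-quartile in place of TMM scaling, 379 rose and 289 fell, and the median natural log2 ratio of all genes moved from 0.05 to −0.06. The median absolute log2 ratio was 0.405 for the natural and 0.194 for the induced effect, beside a median SE of 0.370 and 0.256. Of the 568 genes with a difference below p 0.01, the natural effect was the larger in 536 and the induced in 32, and both effects had opposite signs in 392. Luteolysis over antigestagen was the larger part in 320 of the 568, and luteal regression over mid-gestation in 248. The 568 were selected on the difference, in which the natural effect had the larger median SE. The counts of 536 and 32 therefore cannot test which effect was the larger.

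**Figure D1:**
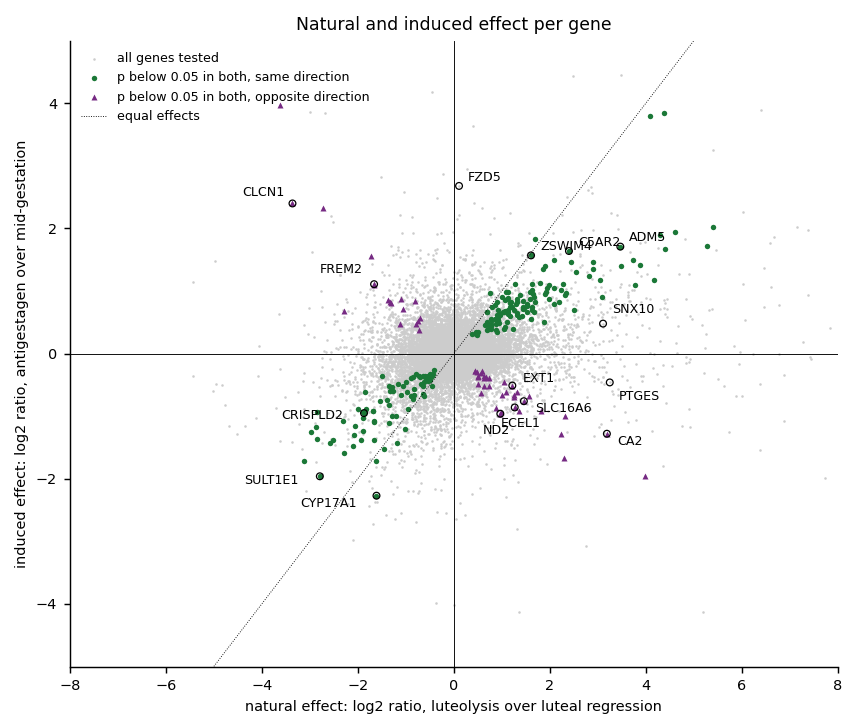
Natural effect (x axis, log2 ratio of luteolysis over luteal regression) against induced effect (y axis, log2 ratio of antigestagen over mid-gestation) for the 14922 genes tested, of which 11 lie outside the axes. Green points are the 202 genes with the same direction and p below 0.05 in both effects, purple triangles the 53 genes with opposite directions. The cloud is wider along the x axis, with an SD of 0.942 against 0.486.

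Across the 14922 genes both effects had the same sign in 8271 (55.4%), and among the 735 natural DEG in 517 (70.3%). The correlation across genes was weak (Pearson's r 0.227, Spearman's rho 0.191), and genes are not independent replicates. The natural DEG that rose had a median log2 ratio of 1.53 in the natural and 0.14 in the induced effect, and those that fell −1.28 and −0.16. These genes were selected on the natural effect, which is also part of the difference. Their medians and the counts that follow therefore cannot test whether the natural effect was the larger. Of the 735, 384 had a difference below p 0.01, and for 10 the 95% interval of the difference lay within −1 and 1. Over all genes that interval was so narrow in 3695 (24.8%). For the other genes the interval reached beyond a 2-fold difference, so that like effects cannot be read from a p-value that missed the threshold.

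The genes of smallest p-value for a positive difference were SNX10, SLC16A6, PTGES, EXT1, LAP3, ZPR1, CA2, PLA2G7, ABRACL and TCIRG1. All 10 rose in luteolysis over luteal regression, with the 3 dogs in luteolysis above both dogs in luteal regression, as held for 19.4% of all genes tested. In the induced effect SLC16A6, EXT1 and CA2 were at −0.76, −0.51 and −1.28 with an unadjusted p-value below 0.05, and the other 7 were within 0.48 of no change on the log2 scale. The rule named them for their p-value of the difference, which was not below the adjusted threshold for any of them with all dogs in edgeR. It was below that threshold for all 10 in DESeq2 and in edgeR without Amy. These fits reuse the counts that named the genes, so passing there is not independent evidence. Each of the 10 passed in 3 or 4 of the 22 alternatives.

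SNX10 (ENSCAFG00000028917), a sorting nexin of endosomes that acts in vacuolar acidification, had the smallest p-value of all named genes. Its CPM was 215 in Amy, 522 in Kimba and 594 in Senta against 56.2 in Lissy and 46.4 in Mara. After antigestagen it lay at 128, 134, 137, 146 and 195, and at mid-gestation at 89.3, 91.6, 104, 105 and 141. Luteolysis was thus above every other dog, luteal regression below every other dog, and the groups of the induced effect overlapped in between. SNX10 rose by a log2 ratio of 3.11 ± 0.39 (SE, edgeR adjusted p = 0.0107) in the natural effect and was at 0.48 ± 0.23 in the induced effect (adjusted p = 0.746). The difference was 2.63 ± 0.43 (edgeR unadjusted p = 1.94e-05, adjusted p = 0.163). Its adjusted p-value was 3.67e-05 in DESeq2 and 0.000353 in edgeR without Amy. SNX10 passed in only 4 of the 22 alternatives, and in 2 of the 15 fits with a dog left out. Over the alternatives its difference was 2.32 to 2.94.

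TCIRG1, a subunit of the proton pump of lysosomes and of bone-resorbing cells, was at 76.7, 76.5 and 64.5 CPM in luteolysis and at 23.9 and 25.2 CPM in luteal regression. It was at 50.7, 54.4, 56.4, 59.8 and 77.7 CPM after antigestagen and at 41.9, 45.3, 48.4, 60.6 and 63.8 CPM at mid-gestation. Amy was here with Kimba and Senta, and the luteal regression dogs stood below the pregnant dogs of all groups. The natural effect was 1.56 ± 0.23 (edgeR adjusted p = 0.0263) and the difference 1.36 ± 0.27 (unadjusted p = 0.000162). Luteolysis over antigestagen was 0.28 and luteal regression over mid-gestation −1.08, so that most of the difference lay between the untreated control groups. CA2, carbonic anhydrase 2, which makes protons and bicarbonate from carbon dioxide, had the same pattern. It was at 15.3, 22.4 and 20.8 CPM in luteolysis and at 1.91 and 2.36 CPM in luteal regression. After antigestagen it was at 7.11, 8.28, 8.72, 11.6 and 19.1 CPM, and at mid-gestation at 6.37, 17.5, 20.4, 24.2 and 65.4 CPM. It rose by 3.19 ± 0.76 in the natural effect (edgeR adjusted p = 0.0531), and the induced value was −1.28 ± 0.46 (unadjusted p = 0.0132 in edgeR). Luteolysis over antigestagen was 0.82 against −3.64 for luteal regression over mid-gestation.

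PTGES (ENSCAFG00000030838), which makes prostaglandin E2, was at 44.2, 90.1 and 163 CPM in Amy, Kimba and Senta and at 7.68 and 13.1 CPM in Lissy and Mara. The antigestagen dogs lay at 13.0, 13.7, 31.5, 35.8 and 38.4 CPM, and the mid-gestation dogs at 25.7, 34.3, 34.4, 37.2 and 51.3 CPM. The groups of the induced effect overlapped, with 2 antigestagen dogs below all mid-gestation dogs. PTGES rose by 3.25 ± 0.60 in the natural effect (edgeR adjusted p = 0.0408), was at −0.46 ± 0.36 in the induced effect and had a difference of 3.71 ± 0.69 (unadjusted p = 7.43e-05). The parts were of like size, 1.90 for luteolysis over antigestagen and −1.81 for luteal regression over mid-gestation.

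SLC16A6 (ENSCAFG00000011086), a member of the monocarboxylate transporter family, was at 29.1, 43.0 and 46.3 CPM in luteolysis and at 12.3 and 16.4 CPM in luteal regression. It was at 8.99, 12.5, 15.7, 18.9 and 19.2 CPM after antigestagen and at 21.6, 21.8, 25.3, 29.2 and 30.1 CPM at mid-gestation. The groups did not overlap in either effect, and the directions were opposite; no overlap with the antigestagen dogs lower held for 0.556% of all genes. The natural effect was 1.46 ± 0.32 (edgeR adjusted p = 0.0478) and the induced −0.76 ± 0.21 (unadjusted p = 0.00286, adjusted p = 0.527). EXT1, which polymerises heparan sulfate, was at 119, 178 and 173 CPM in luteolysis against 57.0 and 77.9 CPM in luteal regression. It was at 75.5, 80.9, 89.9, 100 and 120 CPM after antigestagen against 106, 113, 128, 146 and 171 CPM at mid-gestation. Only Seran overlapped with the mid-gestation dogs, and the effects were 1.22 ± 0.27 and −0.51 ± 0.18.

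Of the remaining genes with a positive difference, ABRACL, a small protein related to actin regulation, set luteolysis apart from all other dogs. It was at 32.8 CPM in Amy, 103 in Kimba and 177 in Senta, while the other 12 dogs lay between 12.3 and 27.7 CPM. PLA2G7, the enzyme that inactivates platelet-activating factor, was at 104, 205 and 227 CPM in luteolysis and at 31.2 and 25.6 CPM in luteal regression, with a difference of 2.74 ± 0.55. It overlapped widely between antigestagen (49.4 to 136 CPM) and mid-gestation (53.2 to 118 CPM). LAP3, a leucine aminopeptidase, and the zinc finger protein ZPR1 had natural effects of 1.71 and 1.90 and induced effects of 0.25 and 0.18.

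**Figure D2:**
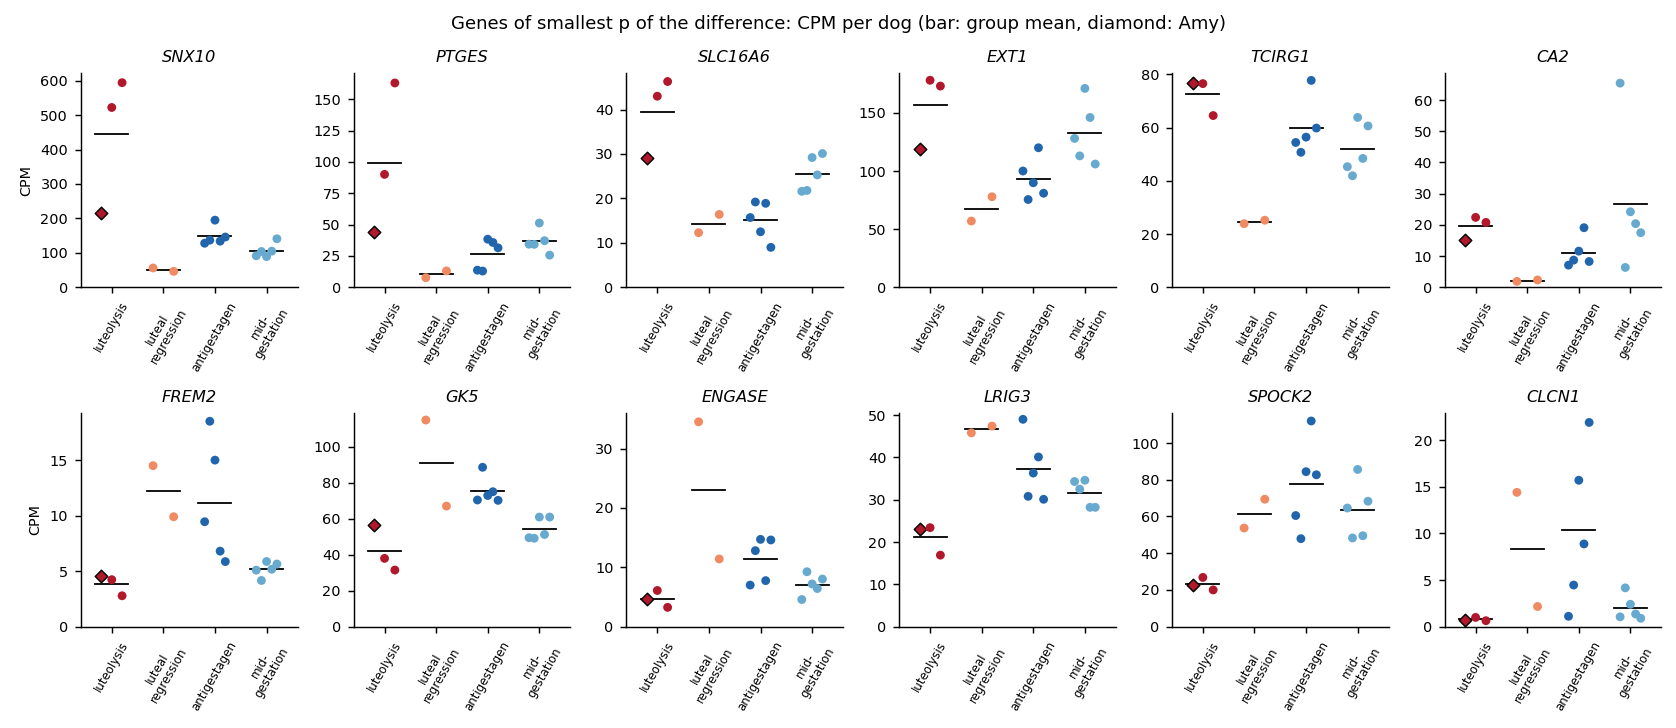
CPM per dog (y axis, from 0) by group (x axis) for 6 genes with a positive and 6 with a negative difference of effects, chosen from those of smallest p-value. Points are dogs, bars are group means and the diamond is Amy. In the upper panels luteolysis lies above luteal regression, as for SNX10 with 215 to 594 against 46.4 to 56.2 CPM, and in the lower panels luteal regression lies above luteolysis.

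The genes of smallest p-value for a negative difference were ENGASE, FREM2, GK5, LRIG3, CLCN1, MGAT4C, SIDT1, SPOCK2, CELSR2 and JADE2. All 10 fell in luteolysis over luteal regression, with no overlap between the dogs (18.5% of all genes tested), and their induced values were 0.13 to 2.40 on the log2 scale. None of these induced values passed in edgeR, and the antigestagen and mid-gestation dogs overlapped for all but GK5. In DESeq2 the induced adjusted p-values of CLCN1 and FREM2 were 0.0609 and 0.0758. ENGASE releases N-glycans from proteins, MGAT4C branches N-glycans, FREM2 is a protein of basement membranes, SPOCK2 a proteoglycan, CELSR2 a cadherin and JADE2 a PHD finger protein.

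FREM2 (ENSCAFG00000006019) was at 4.58, 4.23 and 2.78 CPM in luteolysis and at 14.5 and 9.90 CPM in luteal regression. It was at 5.86, 6.80, 9.45, 15 and 18.5 CPM after antigestagen and between 4.16 and 5.87 CPM in the 5 mid-gestation dogs. Luteolysis lay with or below mid-gestation, and Zeynep alone of the antigestagen dogs touched the mid-gestation range. The effects were −1.66 ± 0.42 (edgeR adjusted p = 0.0662) and 1.11 ± 0.30 (adjusted p = 0.527), with a difference of −2.77 ± 0.52 (unadjusted p = 8.13e-05). GK5, a member of the glycerol kinase family, was at 56.7, 38.0 and 31.5 CPM in luteolysis, at 115 and 67.1 CPM in luteal regression, at 70.3 to 88.7 CPM after antigestagen and at 49.2 to 61.0 CPM at mid-gestation. Its groups did not overlap in either effect, with the antigestagen dogs higher, which held for 0.657% of all genes. The effects were −1.12 ± 0.25 and 0.47 ± 0.18, and the difference was −1.59 ± 0.31 (edgeR unadjusted p = 0.000110).

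SPOCK2 (testican-2) was at 22.5, 26.8 and 20.0 CPM in luteolysis and at 53.7 and 69.4 CPM in luteal regression. With 47.9 to 112 CPM after antigestagen and 48.3 to 85.6 CPM at mid-gestation, luteolysis was below all dogs of the other groups. LRIG3, a leucine-rich repeat membrane protein, was at 23.0, 23.4 and 16.9 CPM in luteolysis, also below all other dogs, which lay between 28.2 and 49.0 CPM. ENGASE was at 3.25 to 6.09 CPM in luteolysis, and its mean in luteal regression rested mainly on Lissy (34.5 CPM, against 11.4 in Mara). The muscle chloride channel CLCN1 had the largest negative difference of these genes, −5.77 ± 1.21, at low levels. It was at 0.638 to 0.988 CPM in luteolysis, at 14.4 and 2.16 CPM in luteal regression, at 1.11, 4.46, 8.87, 15.7 and 21.9 CPM after antigestagen and at 0.899 to 4.16 CPM at mid-gestation.

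Opposite directions with an unadjusted p-value below 0.05 in both effects were found for 53 genes (0.355%), 35 higher in luteolysis and lower after antigestagen and 18 the reverse; 6 of them were below 0.01 in both. Besides SLC16A6, EXT1, CA2, FREM2 and CLCN1, the genes named by the rule were ND2 and ECEL1, higher in luteolysis, and WDFY4, CNNM3 and RAB30, lower in luteolysis. ND2, a mitochondrially encoded subunit of respiratory complex I, was at 6040, 3010 and 3620 CPM in luteolysis and at 2720 and 1600 CPM in luteal regression. It was at 1910 to 2280 CPM after antigestagen and at 3000 to 4730 CPM at mid-gestation, with no overlap in either effect. Its effects were 0.97 ± 0.33 and −0.96 ± 0.22, and neither passed in edgeR (adjusted p = 0.135 and 0.501), while the adjusted p-values in DESeq2 were 0.0323 and 0.00371. ECEL1, a relative of the endothelin-converting enzyme, was at 652, 223 and 380 CPM in luteolysis, at 88.9 and 258 CPM in luteal regression, at 365 to 545 CPM after antigestagen and at 577 to 1100 CPM at mid-gestation. WDFY4, which acts in antigen cross-presentation, was at 10.8 to 11.9 CPM in luteolysis, at 16.0 and 55.4 CPM in luteal regression, at 18.5 to 66.8 CPM after antigestagen and at 11.4 to 30.4 CPM at mid-gestation. The magnesium-transport related CNNM3 and the Golgi GTPase RAB30 had natural values of −0.78 and −1.32 and induced values of 0.47 and 0.82.

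The same direction with an unadjusted p-value below 0.05 in both effects was found for 202 genes (1.35%), 126 higher in both luteolytic groups (0.844%) and 76 lower in both (0.509%); 25 were below 0.01 in both. The natural effect was the larger in 192 of them, and in 41 the 95% interval of the difference lay within −1 and 1. The natural effect had the larger median SE (0.370 against 0.256), so a larger log2 ratio was needed there to reach p 0.05. The count of 192 therefore cannot test which effect was the larger. With the larger p-value of both effects adjusted over all genes, 0 genes passed in edgeR, DESeq2 or limma-voom.

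The 8 genes named as higher in both were KAL1, ADM5, KCNC4, ZFYVE27, TTC9, C5AR2, RELB and C10orf10. All 8 rose in the natural effect by 0.90 to 3.47, and their induced values were 0.61 to 1.71 with edgeR adjusted p-values of 0.524 to 0.541. C5AR2 (ENSCAFG00000004173), a receptor of the complement fragment C5a, was at 23.9, 155 and 134 CPM in luteolysis against 23.0 and 16.4 CPM in luteal regression. It was at 27.7, 42.6, 45.6, 48.5 and 94.9 CPM after antigestagen against 12.1 to 23.8 CPM at mid-gestation. No group overlapped in either effect, although Amy exceeded Lissy by little. The natural effect was 2.40 ± 0.64 (edgeR adjusted p = 0.0729) and the induced 1.64 ± 0.42 (unadjusted p = 0.00128), and the 95% interval of the difference was −0.78 to 2.30. ADM5, of the adrenomedullin family, was at 10.7, 47.5 and 72.1 CPM in luteolysis and at 5.09 and 2.72 CPM in luteal regression. It was at 13.8, 23.3, 29.9, 30.0 and 68.4 CPM after antigestagen and at 7.15 to 15 CPM at mid-gestation. Its difference, 1.76 ± 0.83, had an interval of 0.00 to 3.52.

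For 2 of these genes the effects were nearer in size. ZFYVE27 (protrudin, of the endoplasmic reticulum) was at 39.1 to 49.5 CPM in luteolysis and at 21.0 and 21.8 CPM in luteal regression, and at 33.1 to 49.2 CPM after antigestagen and 20.4 to 34.5 CPM at mid-gestation. Its difference was 0.39, with a 95% interval of −0.24 to 1.02. RELB, a transcription factor of the non-canonical NF-kB pathway, was at 32.6, 35.0 and 54.7 CPM in luteolysis and at 24.1 and 19.8 CPM in luteal regression. After antigestagen it was at 31.3, 41.5, 42.9, 47.9 and 52.3 CPM, all above the mid-gestation dogs, of which 4 lay between 27.6 and 27.9 CPM and Dardanel at 30.6 CPM. RELB had a difference of 0.29 with an interval of −0.34 to 0.91, and its sign changed without Senta, to −0.03. C10orf10, known as decidual protein induced by progesterone, was higher in both luteolytic groups, at 35.4 to 76.3 against 11.3 and 15.1 CPM and at 52.2 to 188 against 23.5 to 64.8 CPM. KAL1 (the matrix protein anosmin), the potassium channel KCNC4 and TTC9 had natural effects of 2.33, 1.25 and 1.79 and induced values of 0.97, 0.69 and 1.13.

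The 8 genes named as lower in both were CRISPLD2, NPR2, IFIT2, CEL, RIMS2, SULT1E1, CABLES1 and NRXN2, of which the first 6 fell in the natural effect and the other 2 did not pass (CABLES1 adjusted p = 0.119 and NRXN2 adjusted p = 0.132 in edgeR). SULT1E1 (ENSCAFG00000002878), which inactivates oestrogens by sulfation, was at a low level, 0, 0.395 and 0.0580 CPM in Amy, Kimba and Senta against 1.17 and 1.28 CPM in luteal regression. It was at 0.177, 0.202, 0.205, 0.333 and 0.436 CPM after antigestagen against 0.731, 0.883, 1.15, 1.28 and 1.36 CPM at mid-gestation. All dogs of both luteolytic groups were below all dogs of both control groups. The effects were −2.79 ± 0.79 and −1.96 ± 0.56, with an interval of the difference of −2.88 to 1.23. CRISPLD2, a secreted protein that is induced by glucocorticoids, was at 126, 287 and 188 CPM in luteolysis against 572 and 896 CPM in luteal regression. It was at 150, 183, 290, 300 and 320 CPM after antigestagen against 378 to 692 CPM at mid-gestation, again without overlap. NPR2, the receptor of C-type natriuretic peptide, fell by 0.73 in the natural effect and was at −0.35 in the induced one, and its difference of −0.38 had an interval of −0.83 to 0.07. The interferon-induced IFIT2, the bile salt-dependent lipase CEL and RIMS2, of vesicle exocytosis, had natural effects of −1.90, −2.52 and −1.35 and induced values of −1.03, −1.38 and −0.82.

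**Figure D3:**
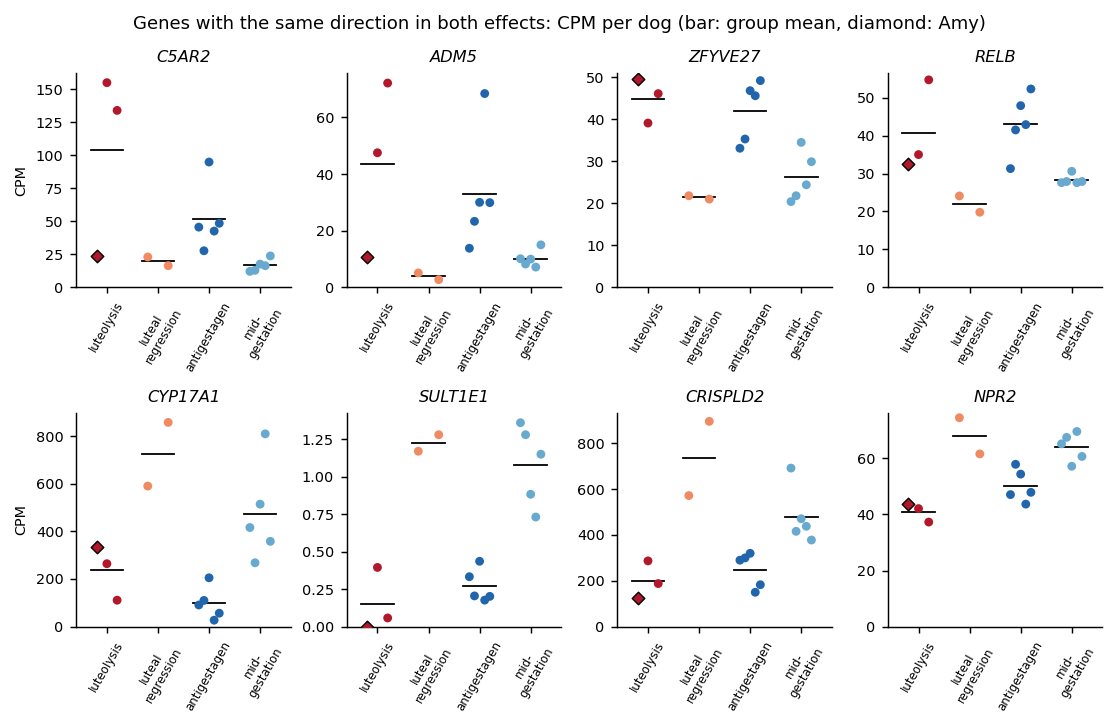
CPM per dog (y axis, from 0) by group (x axis) for 4 genes that were higher and 4 that were lower in both luteolytic groups. Points are dogs, bars are group means and the diamond is Amy. In SULT1E1 and CRISPLD2 all dogs in luteolysis and after antigestagen lie below all dogs of the control groups, and in C5AR2 Amy (23.9 CPM) lies just above Lissy (23.0 CPM).

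In the following, functions are described by lists of genes. Since only genes called by the study have a symbol, the measured members are part of each list and are richer in changed genes than the whole table. The study made its calls on these dogs, so a direction shared by the measured members of a list is not independent evidence. This holds for every list below, cell type markers included. Measured here means tested and paired with a symbol, so that a member that was not measured may still have reads. Among the 2967 named genes, the difference was below p 0.01 and positive in 11.3% and negative in 4.99%, the natural effect was a DEG higher in 15.8% and lower in 6.84%, and the induced effect was below p 0.05 and higher in 11.6% and lower in 8.06%. Both effects had the same sign in 62.8% of them. Their median log2 ratios were 0.23 for the difference, 0.33 for the natural and 0.07 for the induced effect, against 0.05, 0.05 and 0.02 over all genes tested.

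**Figure D4:**
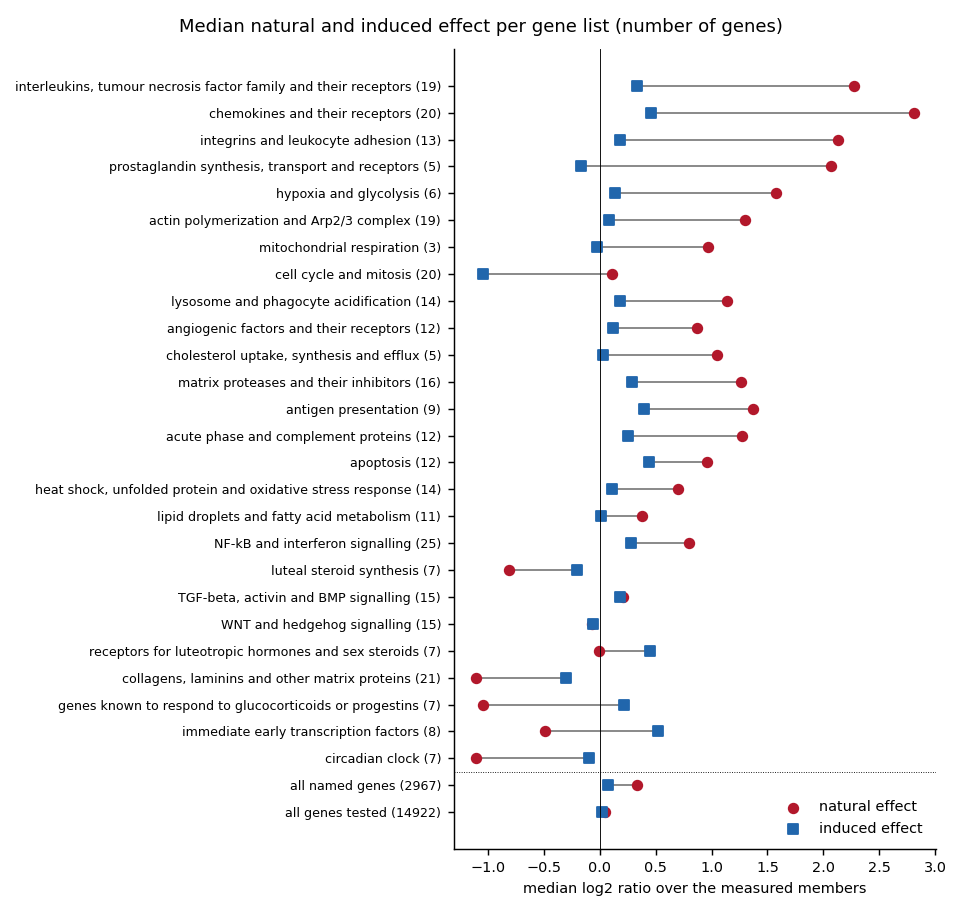
Median log2 ratio (x axis) of the measured members of 26 gene lists (y axis, number of genes in brackets) in the natural effect (red circles) and the induced effect (blue squares), ordered by the median of the difference, with all named genes and all genes tested at the bottom. The red circle lies to the right for cytokines, chemokines and integrins, the blue square lies at −1.04 for cell cycle genes, and the circadian genes have the red circle at −1.11.

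Steroid synthesis had medians below 0 in both effects. The 7 measured of 26 listed genes had medians of −0.81 in the natural, −0.20 in the induced effect and 0.04 in the difference (−0.04 with upper-quartile scaling and −0.40 without Amy), with the same sign in 7 of 7. Among the named genes the sign was the same in 62.8%. In the natural effect 2 of the 7 rose (15.8% of the named genes) and 3 fell (6.84%). CYP17A1 (ENSCAFG00000010279), the enzyme that turns progestins into androgen precursors, was at 334, 264 and 111 CPM in luteolysis against 590 and 857 CPM in luteal regression. It was at 27.1, 56.4, 90.9, 110 and 205 CPM after antigestagen against 268, 358, 416, 514 and 809 CPM at mid-gestation, with no overlap in either effect. It was among the 10 of the 202 genes of like direction whose induced value was the larger, −2.27 ± 0.47 (edgeR unadjusted p = 0.000212, adjusted p = 0.316) against −1.61 ± 0.64 (adjusted p = 0.191). HSD3B7, an enzyme of bile acid synthesis, rose in the natural effect by 1.60 ± 0.28 and was at 0.56 ± 0.18 in the induced effect, with no overlap of dogs in either and a difference of 1.04 ± 0.32 (edgeR unadjusted p = 0.00579). HSD17B12, a reductase of fatty acid elongation that also acts on oestrogens, rose by 1.31 with an induced value of 0.05. GATA4 and GATA6, transcription factors of steroidogenic cells, fell in the natural effect by 0.81 and 0.88, and GATA4 was at −0.20 in the induced effect. HSD11B2, which inactivates glucocorticoids, was at −0.36 and −0.39.

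Among 5 measured of 31 listed genes of cholesterol handling, CYP51A1 of cholesterol synthesis rose by 1.70 and was at 0.82 after antigestagen, and the lipoprotein receptor VLDLR fell by 1.5 with an induced value of 0.03. INSIG1, a brake of sterol synthesis, and MVD, of the mevalonate pathway, had natural values of 2.45 and 1.05 that did not pass. The list of lipid droplets and fatty acid metabolism (11 of 31 measured) had the same sign in 11 of 11 (62.8% of the named genes). Its natural and induced medians were 0.38 and 0.01. The acyl-CoA synthetases ACSL4, ACSL3 and ACSL5 rose by 3.02, 1.21 and 0.98, and the lipid droplet protein CIDEC by 2.59, while their induced values were between 0.01 and 0.30.

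The receptors for luteotropic hormones and sex steroids (7 of 15 measured) had medians of −0.01 in the natural and 0.45 in the induced effect. PRLR was between 74.8 and 95.2 CPM in luteolysis and at 65.8 and 104 CPM in luteal regression, and it was at 121 to 175 CPM after antigestagen against 67.3 to 145 CPM at mid-gestation, an induced value of 0.55 ± 0.22 (edgeR unadjusted p = 0.0237). FSHR, the receptor of follicle-stimulating hormone, was at 0.05 and 0.66. GHR, the growth hormone receptor, rose by 1.23 in luteolysis and was at 0.45 after antigestagen. The oestrogen receptor ESR1 and the relaxin receptor RXFP1 had natural values of −1.29 and −2.19 and induced values of 0.13 and −0.44, none of which passed. IGF1R, the insulin-like growth factor receptor, was at 0.64 and 0.53.

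All 5 measured of 20 prostaglandin genes had a positive difference (57.3% of the named genes), with medians of 2.07 in the natural and −0.17 in the induced effect. Apart from PTGES, none passed the natural test with all dogs, whereas without Amy 3 of the 5 rose in the natural effect and 2 were DEG of the difference, among them PTGIS (edgeR adjusted p = 0.0446). SLCO2A1, the prostaglandin transporter, was at 12.8 to 25.7 CPM in luteolysis against 3.86 and 4.00 CPM in luteal regression, while antigestagen (4.24 to 35.5 CPM) and mid-gestation (2.26 to 25.4 CPM) overlapped widely. The prostaglandin E2 receptor PTGER2 was at 0.826 CPM in Amy and at 6.56 and 10.3 CPM in Kimba and Senta, where the other 12 dogs lay between 0.945 and 4.89 CPM. PTGIS, prostacyclin synthase, was at 28.8 CPM in Amy, below Lissy and Mara (117 and 121 CPM), and at 409 and 362 CPM in Kimba and Senta.

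Genes known to respond to glucocorticoids or progestins (7 of 18 measured) had medians of −1.04 in the natural and 0.22 in the induced effect. ZBTB16 and ANGPTL4 were below p 0.01 for a negative difference, as were 4.99% of the named genes. ZBTB16, a zinc finger gene induced by steroids, was at 1.28, 1.11 and 0.812 CPM in luteolysis, at 5.23 and 10.1 CPM in luteal regression, at 1.90 to 3.33 CPM after antigestagen and at 2.98 to 8.50 CPM at mid-gestation. It fell by 2.84 ± 0.48 (edgeR adjusted p = 0.0371) and had an induced value of −0.93 ± 0.33 (unadjusted p = 0.0128). ANGPTL4, an inhibitor of lipoprotein lipase, was at 27.9 to 46.5 CPM in luteolysis against 67.3 and 117 CPM in luteal regression, but at 109 to 319 CPM after antigestagen against 54.2 to 160 CPM at mid-gestation. The glucocorticoid receptor NR3C1 and the mineralocorticoid receptor NR3C2 had natural values of −0.63 and −1.04 that did not pass.

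The circadian list had a negative difference in all 7 measured of 19 genes, 3 below p 0.01 (named background 4.99%), and 5 fell in the natural effect (6.84%). The repressor PER2 was at 9.83, 12.7 and 7.19 CPM in luteolysis and at 42.1 and 63.2 CPM in luteal regression, with 10.4 to 24.7 CPM after antigestagen and 14.7 to 42.1 CPM at mid-gestation. It fell by 2.41 ± 0.41 (edgeR adjusted p = 0.0371) and was at −0.50 ± 0.29 in the induced effect. NR1D2, a nuclear receptor of the clock, the repressor CRY2 and the transcription factor TEF fell by 1.11, 0.81 and 1.26, with induced values within 0.11 of 0. The fifth, PER3, is named after its values were seen, at −1.69 and −0.10. The time of day of collection was not in the labels used here, and its part was not tested. Without Amy, 1 of the 7 was a DEG of the difference and 4 fell in the natural effect.

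The immediate early transcription factors (8 of 23 measured) had induced values above 0 in 8 of 8, with a median of 0.52 against −0.49 in the natural effect. FOSL2, of the AP-1 complex, was at 43.0 to 87.3 CPM after antigestagen against 14 to 39.5 CPM at mid-gestation without overlap, at 1.06 ± 0.26 (edgeR unadjusted p = 0.000908, adjusted p = 0.501), and at 0.14 in the natural effect. JUN was at 18.0, 18.5 and 28.7 CPM in luteolysis and at 69.6 to 135 CPM after antigestagen, but at 33.3 and 80.5 CPM and at 37.9 to 227 CPM in the respective controls, and JUND behaved alike with natural and induced values of −0.91 and 0.37. FOSL1 was at 0.450 CPM in Amy and at 7.71 and 12.2 CPM in Kimba and Senta, with at most 1.79 CPM in the other dogs. None of these passed.

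The highest levels of the chemokine list lay in Kimba and Senta. Of 20 measured of 41 chemokines and receptors, 17 had a positive difference (57.3% of the named genes), 4 were below p 0.01 (11.3%) and 8 rose in the natural effect (15.8%). The medians were 2.81 in the natural and 0.46 in the induced effect, and 2.06 in the difference (2.16 with genes without reads in a group at their bound). CCL13, which attracts monocytes and eosinophils, was at 0.0751, 19.5 and 27.5 CPM in luteolysis and had no read in Lissy and Mara. It was at 0 to 0.404 CPM after antigestagen and at 0 to 1.89 CPM at mid-gestation. CCL3 was at 0.0751, 127 and 183 CPM in luteolysis, at 0.880 and 0 CPM in luteal regression, at 1.12 to 5.00 CPM after antigestagen and at 0.575 to 6.63 CPM at mid-gestation. In both, Amy was with luteal regression. CXCL8, the neutrophil attractant, was at 86.0, 311 and 282 CPM in luteolysis against 10.1 and 4.72 CPM, without passing (edgeR adjusted p = 0.129), and the other dogs were at most at 46.7 CPM except Gold at 177 CPM. CCL14 was higher in all 3 dogs in luteolysis, at 23.6, 15.5 and 32.3 CPM against 3.23 and 3.54 CPM, but was at 32.7 and 33.3 CPM in Zeynep and Seran as well.

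All 19 measured of 44 cytokines and receptors had a positive difference (57.3% of the named genes). Of these, 0 were below p 0.01 in edgeR and 0 were DEG in DESeq2. In the natural effect 6 rose (15.8%), and the natural and induced medians were 2.27 and 0.33. CSF2RA, a receptor chain of granulocyte-macrophage colony-stimulating factor, was at 2.78 CPM in Amy and at 20.5 and 15.9 CPM in Kimba and Senta, where the other 12 dogs lay between 0.462 and 3.43 CPM. OSMR, the oncostatin M receptor, rose by 1.94 and the interleukin 1 antagonist IL1RN by 2.46, with induced values of 0.31 and 0.29. IL1B, at a natural value of 4.84 that did not pass, had no read in Amy and was at 7.27 and 18.8 CPM in Kimba and Senta, with at most 3.67 CPM elsewhere. IL23A, at 0.672 to 1.39 CPM in luteolysis against 0.196 and 0.257 CPM, did not pass. Without Amy, 5 of the 19 cytokine genes and 8 of the 20 chemokine genes were DEG of the difference, all positive. Among the 2969 named genes, 420 were positive DEG there.

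Acute phase and complement genes (12 of 29 measured) had the same sign in both effects in 12 of 12, with medians of 1.27 and 0.25. SERPINA1, the inhibitor of neutrophil elastase, was at 30.9, 120 and 81.5 CPM in luteolysis against 5.67 and 3.39 CPM in luteal regression, while antigestagen (22.1 to 53.0 CPM) lay within mid-gestation (7.66 to 73.9 CPM). It rose by 4.09 ± 0.87 (edgeR adjusted p = 0.0478) and had an induced value of 0.01. CP, ceruloplasmin, rose by 1.45 with 0.38 in the induced effect, and ITIH4 and C1R were at 1.66 and −0.81 in the natural effect without passing. The genes of NF-kB and interferon signalling (25 of 50 measured) had the same sign in 24 of 25, against 62.8% of the named genes. Besides RELB, named above, the chemokine CXCL10 had a natural value of 1.98 and an induced value of 0.52, and the interferon-induced MX1, OAS3, RSAD2 and IFIT2 had natural values of −2.53, −1.30, −3.52 and −1.90. Of these MX1 and IFIT2 fell and CXCL10 rose, and OAS3 was the gene of opposite sign, at 0.28 after antigestagen. In the induced effect 5 of the 25 were higher (11.6% of the named genes) and 1 was lower (8.06%) at an unadjusted p below 0.05. The antigen presentation list (9 of 28) also had the same sign in 9 of 9, with medians of 1.37 and 0.40. DLA-DRB1, of a multigene family between whose members reads may be split, rose by 2.00 and was at 0.41 after antigestagen. The costimulators CD86 and CD80 were at 1.41 and 1.37 and the peptide transporter TAP1 at 0.69, without passing.

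The lysosome and phagocyte list (14 of 31 measured) had medians of 1.14 and 0.18. Besides SNX10 and TCIRG1, the proton pump subunit ATP6V1B2 rose, from 131 and 132 CPM in luteal regression to 239, 251 and 254 CPM in luteolysis, with 146 to 241 CPM after antigestagen and 144 to 206 CPM at mid-gestation. GPNMB, a glycoprotein of phagocytes and melanosomes, went the other way, at 18.8, 21.9 and 52.0 CPM in luteolysis against 319 in Lissy and 75.0 CPM in Mara.

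Of 19 measured of 32 genes of actin polymerization, 18 were positive, 10 were below p 0.01 (named background 11.3%) and 11 rose in the natural effect (15.8%), while 1 was below an unadjusted p of 0.05 in the induced effect. The medians were 1.30 and 0.08. Of the Arp2/3 complex, which nucleates branched actin, ARPC5 was at 37.4, 46.8 and 57.2 CPM in luteolysis and at 19.6 and 19.9 CPM in luteal regression, with 23.1 to 34.5 CPM after antigestagen and 21.2 to 28.6 CPM at mid-gestation. ARPC5, ARPC1B and ARPC5L rose by 1.26, 1.62 and 1.30 and had induced values of 0.02, 0.21 and 0.08. CAPG, which caps actin filaments in macrophages, was the gene with an induced value of 1.10 (edgeR unadjusted p = 0.0109). It was at 46.6, 212 and 233 CPM in luteolysis, at 13.0 and 11 CPM in luteal regression, at 17.0 to 51.8 CPM after antigestagen and at 8.48 to 20.0 CPM at mid-gestation. Without Amy 13 of the 19 were DEG of the difference and 15 rose, beside 420 positive DEG and 834 that rose among the 2969 named genes.

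Integrins and leukocyte adhesion genes (13 of 31 measured) had 12 positive differences (57.3% of the named genes), 4 of them below p 0.01 (11.3%). In the natural effect 7 rose (15.8%), and the natural and induced medians were 2.13 and 0.18. SELP, the endothelial and platelet selectin, was at 34.6, 81.5 and 130 CPM in luteolysis, at 14.7 and 21.6 CPM in luteal regression and at 16.4 to 47.0 CPM in the other dogs. SDC1, a heparan sulfate proteoglycan, was at 9.68 CPM in Amy, below both luteal regression dogs (14.3 and 15 CPM), and at 105 and 135 CPM in Kimba and Senta. ITGAE, an integrin chain of lymphocytes, was at 0.97 without passing. Without Amy 11 of the 13 were DEG of the difference, all positive, beside 420 of the 2969 named genes.

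Matrix genes split. The collagens, laminins and other matrix proteins (21 of 46 measured) had a negative difference in 18 of 21, where 57.3% of the named genes had a positive one. In the natural effect 6 fell (6.84%) and none rose, and the natural and induced medians were −1.11 and −0.30. Besides SPOCK2 and CRISPLD2, the elastic fibre protein EMILIN1 fell, from 71.4 and 84.6 CPM in luteal regression to 16.7, 51.6 and 39.6 CPM in luteolysis, with 66.0 to 83 CPM after antigestagen and 52.3 to 88.4 CPM at mid-gestation. EGFLAM, a ligand of dystroglycan, fell by 1.47, with −0.08 in the induced effect, while the provisional matrix protein TNC had a positive difference of 3.12 and a natural value of 2.51 that did not pass. The matrix proteases and their inhibitors (16 of 33 measured) had medians of 1.26 and 0.29. TIMP1, an inhibitor of metalloproteinases, rose from 194 and 136 CPM to 814, 1550 and 1800 CPM, while it was at 421 to 2240 CPM after antigestagen and 508 to 1160 CPM at mid-gestation. ADAMTS5, an aggrecanase, was at 4.20 CPM in Amy and at 297 and 213 CPM in Kimba and Senta, against at most 9 CPM in any other dog. The urokinase receptor PLAUR rose by 3.00 with an induced value of 0.61, and urokinase, PLAU, was at 1.60 and −0.35.

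Among the measured members of the cell cycle list the difference came mainly from the induced effect. All 20 measured of 50 genes had a positive difference (57.3% of the named genes), with a median of 1.12. The natural median was 0.11 and the induced −1.04. In the induced effect 15 of 20 were lower at an unadjusted p below 0.05 and none was higher, where 8.06% of the named genes were lower. Genes received a symbol through the study's calls, which include mid-gestation over antigestagen in these dogs. The count of lower genes is therefore not independent evidence, and the listed genes without a symbol could not be followed. Both effects had the same sign in 9 of 20. CDC20, an activator of the anaphase-promoting complex, was at 7.87 to 9.11 CPM in the 5 antigestagen dogs and at 9.34 to 23.7 CPM at mid-gestation, with no overlap, and at 19.7, 12.5 and 26.4 CPM in luteolysis against 7.87 and 13.3 CPM in luteal regression. CCNA2, cyclin A2, was at 1.83 to 3.90 CPM after antigestagen and at 2.84 to 11.3 CPM at mid-gestation, with values of −1.16 ± 0.36 in the induced and 0.09 ± 0.51 in the natural effect. By contrast, RRM2, a subunit of ribonucleotide reductase, was at 50.9 and 64.7 CPM in Kimba and Senta and at 4.13 CPM in Amy, where all other dogs lay between 0.828 and 6.84 CPM. Cyclin D3, CCND3, rose in all 3 dogs in luteolysis, at 54.4 to 73.5 CPM against 14.8 and 17.9 CPM, with −0.05 in the induced effect. The kinase CDK4 was at 0.50 and −0.25. Without Amy all 20 differences stayed positive and 2 were DEG, while the natural median became −0.14.

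**Figure D5:**
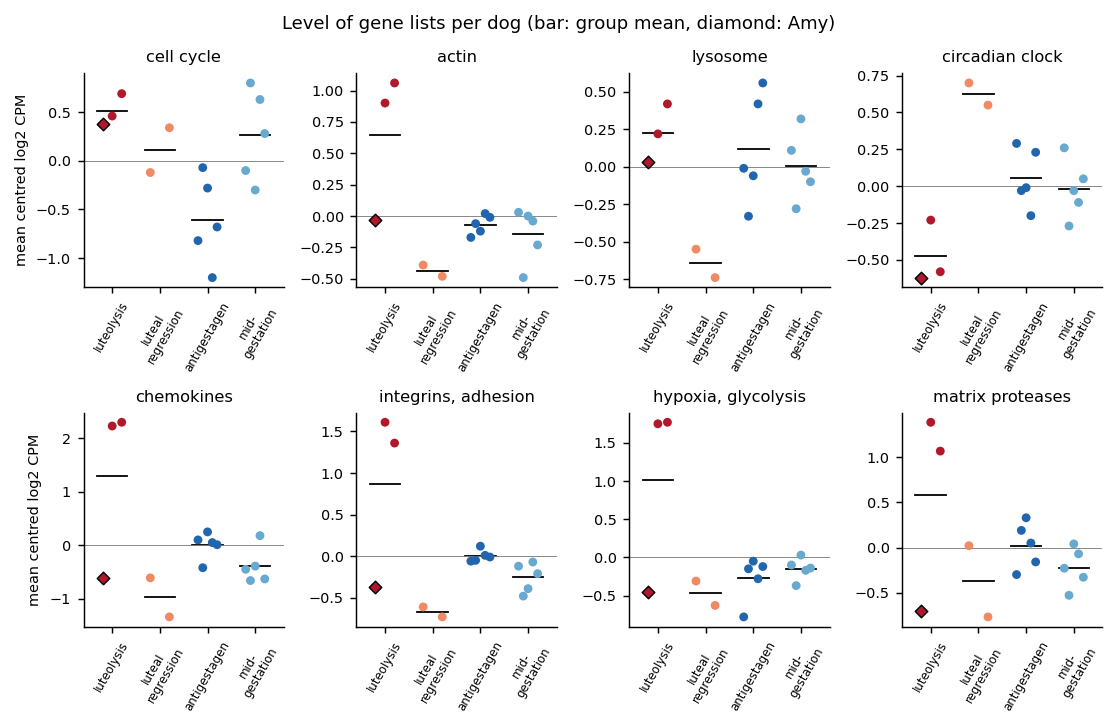
Level of 8 gene lists per dog (y axis, mean over the members of log2 CPM centred on the mean of all dogs) by group (x axis). Points are dogs, bars are group means and the diamond is Amy. In the chemokine, integrin, hypoxia and protease lists Amy lies with or near luteal regression, whereas in the cell cycle, lysosome and circadian lists Amy lies with or next to Kimba and Senta.

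The level of a list per dog separated lists in which all 3 dogs in luteolysis differed from luteal regression from those in which Kimba and Senta alone did. For the circadian list the dogs in luteolysis were at −0.62, −0.23 and −0.58 and those in luteal regression at 0.70 and 0.55. The antigestagen dogs were at −0.20 to 0.29 and the mid-gestation dogs at −0.27 to 0.26, so that Kimba overlapped with mid-gestation. For the lysosome list luteolysis was at 0.03, 0.22 and 0.42 against −0.55 and −0.74 in luteal regression. With −0.33 to 0.56 after antigestagen and −0.28 to 0.32 at mid-gestation, only luteal regression stood apart there. For the chemokines Amy was at −0.62, Kimba at 2.23 and Senta at 2.30, with Lissy at −0.61 and Mara at −1.34. For hypoxia and glycolysis Amy was at −0.46, Kimba at 1.75 and Senta at 1.77, with −0.31 and −0.63 in luteal regression. The actin list lay in between, with Amy at −0.03, above Lissy (−0.39) and Mara (−0.48) and below Kimba (0.90) and Senta (1.06). For the cell cycle list the antigestagen dogs were at −0.07 to −1.20 and the mid-gestation dogs at −0.30 to 0.80, so that both groups overlapped.

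Without Amy more genes passed in the natural effect in most lists, as in the named genes as a whole, where 834 of 2969 rose against 469 of 2967 with all dogs. The number that rose went from 3 to 9 of 16 matrix proteases, from 2 to 10 of 25 NF-kB and interferon genes, from 3 to 8 of 14 lysosome genes and from 3 to 6 of 12 acute phase genes. It went from 8 to 14 of 20 chemokines, from 6 to 15 of 19 cytokines and from 7 to 11 of 13 integrins. It went from 2 to 6 of 12 apoptosis genes, from 0 to 6 of 15 TGF-beta genes, from 0 to 4 of 15 WNT genes, from 3 to 5 of 6 hypoxia genes, from 1 to 3 of 9 antigen presentation genes and from 0 to 2 of 8 immediate early genes. In the matrix, stress and lipid lists it was 1, 6 and 4, against 0, 4 and 4. Of the 2969 named genes, 420 were positive and 137 negative DEG of the difference without Amy, against 0 with all dogs. Positive DEG were 4 of 16 matrix proteases, 4 of 6 hypoxia genes, 4 of 14 stress genes and 3 of 25 NF-kB and interferon genes. They were also 3 of 12 apoptosis, 3 of 11 lipid, 2 of 14 lysosome, 2 of 12 acute phase and 2 of 12 angiogenic genes. The NF-kB, lysosome, acute phase and angiogenic shares were near that of the named genes. These 9 lists held 0 negative DEG. The TGF-beta list held 3 positive and 2 negative, the WNT list 1 and 2 and the matrix list 0 and 2.

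The hypoxia and glycolysis genes (6 of 30 measured) all had a positive difference (57.3% of the named genes), with 3 below p 0.01 (11.3%). Their natural and induced medians were 1.58 and 0.14. The glucose transporter SLC2A1 was at 44.3 CPM in Amy and at 150 and 153 CPM in Kimba and Senta, where the other dogs lay between 32.3 and 50.1 CPM. PFKFB3, a regulator of glycolysis, was at 38.1 CPM in Amy, 277 in Kimba and 345 in Senta, and the hexokinase HK2, which did not pass, at 0.525, 53.7 and 44.7 CPM. PFKFB4 differed from these, at 9.27 to 11.4 CPM in luteolysis, 3.23 to 8.22 CPM after antigestagen and 6.73 to 23.5 CPM at mid-gestation, with an induced value of −1.18 ± 0.32 (edgeR unadjusted p = 0.00241). Of mitochondrial respiration 3 of 33 genes were measured, ND2, COX7A2 and NDUFB5, with natural values of 0.97, 1.14 and 0.90, none of which passed, and Amy was the highest dog in all 3.

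The stress response list (14 of 39 measured) had 4 genes below p 0.01 with a positive difference (11.3% of the named genes). These were TXN, SOD2, TRIB3 and TXNRD1, all of which rose in the natural effect (15.8%). Mitochondrial superoxide dismutase SOD2 was at 836, 1490 and 1800 CPM in luteolysis, at 358 and 305 CPM in luteal regression, at 374 to 721 CPM after antigestagen and at 304 to 579 CPM at mid-gestation. Thioredoxin TXN, its reductase TXNRD1 and the stress-induced pseudokinase TRIB3 rose by 1.59, 0.72 and 2.43, with induced values within 0.04 of 0. Apoptosis genes (12 of 37) had medians of 0.96 and 0.44. Cytochrome c, CYCS, rose by 1.33 and the death receptor TNFRSF12A by 4.18, with induced values of −0.24 and 1.17, and the effector BAK1 was at 0.95 without passing. TP53INP1 had a negative difference of −1.47, with 1.06 after antigestagen (edgeR unadjusted p = 0.0106).

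Of 12 measured of 37 angiogenic genes, 4 rose in luteolysis (15.8% of the named genes), and 6 without Amy. Nitric oxide synthase NOS3, the angiopoietin receptor TEK and PDGFA rose by 2.20, 1.34 and 1.31, with induced values of 0.56, 0.22 and 0.05. ESM1, endocan of endothelial tip cells, was at 5.43 to 18.0 CPM after antigestagen and 14.6 to 37.5 CPM at mid-gestation, at −1.34 ± 0.36 (edgeR unadjusted p = 0.00225), and at 0.55 in the natural effect. In the TGF-beta list (15 of 39, medians 0.21 and 0.18), INHBA, a subunit of activin, and its antagonist FSTL3 had differences of 1.70 and 2.71, CITED2 had −1.32, and LTBP4, which stores latent TGF-beta, fell by 2.47. In the WNT list (15 of 38, medians −0.07 and −0.06) the receptor FZD5 was at 8.23, 13.1, 13.1, 19.7 and 27.0 CPM after antigestagen and at 0.925, 1.41, 1.63, 1.83 and 6.69 CPM at mid-gestation. This induced value, 2.68 ± 0.48 (edgeR unadjusted p = 5.55e-05, adjusted p = 0.207), stood beside 0.11 ± 0.67 in the natural effect, with 4.11 to 5.74 CPM in luteolysis and 3.69 and 5.87 CPM in luteal regression. In DESeq2 the adjusted p-value of the induced value of FZD5 was 5.35e-05. The co-receptor LRP5 fell by 1.06, CTNNB1, beta-catenin, was at 0.78 without passing, and WNT7A was at or below 1.10 CPM in all dogs.

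The study itself singled out 7 genes as shared between both forms of luteolysis, and all 7 were measured. The set was chosen on these dogs, so its direction is not independent evidence. All 7 had the same sign, with medians of 1.79 and 1.40. ZSWIM4, the member not described so far, was at 12.4, 32.9 and 43.7 CPM in luteolysis against 12.5 and 6.98 CPM in luteal regression, and at 11.4 to 37.0 CPM after antigestagen against 6.40 to 8.58 CPM at mid-gestation. Its effects were 1.61 ± 0.56 and 1.57 ± 0.38, and the difference was 0.04 with a 95% interval of −1.35 to 1.43. Among genes listed for qPCR, the transcription factor YY1 was at −0.32 and 0.06, and the matrix protein ECM2 at −1.29 and −0.41, none of which passed.

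Markers of other cell types moved with some of these results, and their part was not tested. The summed smooth muscle markers (2 of 7 measured, TAGLN and SMTN) were at 110 CPM in Amy, 1400 in Kimba and 1390 in Senta, and at 88.2 to 544 CPM in all other dogs, so that Kimba and Senta also stood apart there. The summed macrophage markers (5 of 13) were at 284 to 335 CPM in luteolysis, at 112 and 139 CPM in luteal regression, at 239 to 649 CPM after antigestagen and at 206 to 499 CPM at mid-gestation, with luteal regression lowest as for TCIRG1 and CA2. The endothelial markers (5 of 10) were at 390 to 867 CPM in luteolysis against 274 and 284 CPM, and at 440 to 962 CPM after antigestagen against 266 to 652 CPM. The neutrophil markers (3 of 9) were at 8.03 CPM in Amy, 92.2 in Kimba and 46.0 in Senta, at 7.63 and 2.16 CPM in luteal regression, and at 20.6 to 44.5 and 8.50 to 42.2 CPM in the other groups. Of the T and NK cell markers (5 of 15), 1 had a natural value above 0, GZMB, granzyme B, and the natural median was −0.70. GZMB was at 0.676, 206 and 110 CPM in luteolysis and at 0.564 to 4.41 CPM elsewhere. The defining CD3E was at 0.290 to 0.791 CPM in luteolysis against 0.880 and 1.18 CPM in luteal regression. CD2 was at 4.20, 1.94 and 2.26 CPM in luteolysis against 6.06 and 4.72 CPM in luteal regression. The fibroblast markers (6 of 11) were at 2140 to 4740 CPM in luteolysis against 5430 and 7130 CPM in luteal regression. This sum consists mainly of COL1A1, COL1A2 and COL3A1, which the matrix list also holds. Only 1 of the 6 had a natural value above 0, MCAM, with a mean of 188 CPM in luteolysis and 74.7 CPM in luteal regression. CD248 was at 4.50, 5.02 and 4.58 CPM in luteolysis against 7.38 and 7.34 CPM in luteal regression. PDGFRA was at 41.6, 110 and 68.6 CPM in luteolysis against 197 and 183 CPM in luteal regression. The 1 measured red cell marker, HBA, was at 790 CPM in Zeynep and at 1.45 to 70.8 CPM in the others. The 1 measured B cell marker, POU2AF1, was at most at 1.51 CPM, the granulosa marker FSHR (1 of 10) was at 461 to 1940 CPM, and the adipocyte markers (2 of 6) were at 13.7 to 89.8 CPM. Of the epithelial markers none was a tested gene paired with a symbol, so their level is not known here.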

How the data were processed

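The authors sequenced poly-A RNA of the CL from a single end (125 bases), aligned the reads to CanFam3.1 with STAR 2.5.1b per the labels, summarised them to Ensembl genes with featureCounts, and deposited raw counts. Large counts carry 4 significant digits in the table (3148 values) and were used as deposited. RNA integrity numbers were 7.2 to 9.5 per the labels.

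Groups were read from the labels. For Nescafe the title and condition were followed, while the description names another group. In R 4.3.3, genes whose count averaged 10 or more in at least 1 group were fitted with edgeR 4.0.16 (TMM, group as factor, all 15 dogs, quasi-likelihood F-test, two-sided, Benjamini-Hochberg over all 14922 genes). DESeq2 1.42.0 and limma 3.58.1 (voom) were alternatives, as were other scalings, filters, thresholds and each dog left out. SE was derived as the absolute log2 ratio divided by the square root of its F statistic, so it restates the test. The 95% intervals are the log2 ratio plus or minus this SE times the t quantile. CPM used TMM library sizes, and list levels used log2 CPM with a prior count of 2. The test was checked on simulated data.

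The genes, lists and rules were chosen with earlier results of these data known. Named were the 10 genes of smallest p-value of the difference in each direction, the 8 with the same and the 5 with opposite directions in each direction by their larger p-value, all members of the lists on steroid synthesis, luteotropic receptors, qPCR and shared genes, the 4 members of smallest p-value of the difference in each other function list, and cell type markers. Symbols came from the study's additional files. Some genes that these rules name are not reported here. No sequence or coordinate was used. Each dog is an independent animal. Depth limited low genes: 3 counts, the floor set for a group without reads, are 0.0751 CPM over both luteal regression dogs. Intervals rest on a spread between dogs that is estimated per gene over all groups together, with information shared across genes. They do not measure the spread within a single group.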

Additional observations from a re-analysis of the deposited data

Results flagged for a closer look

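Within the groups of 5, the gap of the highest or lowest dog to its neighbour, relative to the range of the group, was examined for the 41 genes named for the difference or for the same or opposite directions (82 groups). Chance alone flags about 1 in 20 groups, and 3 stood out. GK5 had Suzan as highest antigestagen dog (88.7 CPM, gap 0.717 of the range), JADE2 had Seran as highest antigestagen dog (81.0 CPM against 74.4 to 75.7 CPM, gap 0.803), and RELB had Dardanel as highest mid-gestation dog (30.6 CPM against 27.6 to 27.9 CPM, gap 0.883).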

How the results depend on the processing

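The difference of effects held 0 DEG under other scalings, robust edgeR, other filters and an adjusted p below 0.05, but 495 with DESeq2 and 2549 with limma-voom, and 0 to 684 with each dog left out, the highest without Amy. Natural DEG were 1568 with DESeq2, 3649 with limma-voom, 169 at an adjusted p below 0.05 and 0 to 1594 with dogs left out, lowest without Lissy (0), Mara (1) and Senta (5), and 441 without Gold, 453 without Birnur and 1594 without Amy. Induced DEG were 87 and 18 with DESeq2 and limma-voom, and 0 to 6 with dogs left out (6 without Kurtulus, 4 without Citir). Genes with the same direction were 587 with limma-voom, 25 at p below 0.01 and 94 to 342 with dogs left out (94 without Mara, 342 without Amy). Opposite genes were 357 with limma-voom, 6 at p below 0.01 and 15 to 84 with dogs left out (15 without Lissy, 31 without Senta, 30 without Birnur, 34 without Suzan, 84 without Amy). Bounded differences were 2021 to 3884 with dogs left out (2021 without Mara, 2348 without Lissy). The cause of these changes was not tested. With upper-quartile scaling the median natural log2 ratio of all genes moved from 0.05 to −0.06, and the natural DEG split into 379 higher and 289 lower, against 520 and 215 with TMM. For the named genes, 3609 of their values under the alternatives kept direction and side of the threshold, 284 newly passed, 61 no longer passed and 22 changed sign without passing before or after (8 of HSD11B2, 8 of ZSWIM4, 3 of IGF1R and 1 each of RELB, CYP17A1 and NRXN2, all for the difference), while 0 called values changed sign. No paired analysis was possible because replicate numbers only name dogs. The design is limited by 2 luteal regression and 3 luteolysis dogs, by unlike days and pregnancy, and by symbols for 2967 of 14922 genes.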
